A study of Mus musculus with 36 samples.

Results

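The IL-1 family and inflammasome genes described here are 8 members, Il1a, Il1b, Il18, Il1rn, Il18bp, Nlrp3, Pycard and Casp1. They were chosen by gene symbol, with earlier results of these data known, from the 24127 genes of a table of normalized read counts. All 8 averaged 10 normalized counts or more per library and are among the 11853 genes tested. The cells were dendritic cells from C57BL/6 mouse bone marrow, cultured in GM-CSF and selected for CD11c, an integrin that dendritic cells carry. They were labelled WT or Dhx58-/-, the knockout (KO) of the RNA helicase LGP2, and were transfected with 20 ng of PAMP RNA, an agonist of the RNA sensor RIG-I, or left as mock controls. RNA was sequenced after 1, 3 and 6 h. The 12 groups, each a genotype, treatment and time, held 3 libraries each, 36 in all. Per the labels' protocol the cells were plated as biological triplicates, and whether the 3 libraries of a group came from separate mice is not given there, so p-values here cover only the spread among the libraries measured. All mock cells are called both mock and untreated in the labels, so a response here is the difference from those cells, transfection included.

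IL-1 alpha (Il1a) and IL-1 beta (Il1b) bind the same receptor and start a signal through the adaptor MyD88. IL-18 (Il18) is their relative that drives interferon gamma production in lymphocytes. Each has a soluble brake: the receptor antagonist (Il1rn) occupies the IL-1 receptor without signalling, and the IL-18 binding protein (Il18bp) captures free IL-18. Pro-IL-1 beta and pro-IL-18 must be cut before they act, and caspase-1 (Casp1) does this after it is recruited to an inflammasome, a complex of a sensor such as NLRP3 (Nlrp3) and the adaptor ASC (Pycard). Production of an inflammasome cytokine is commonly described in steps, with transcription first and cleavage after it. Read counts bear on the first step and do not measure cleavage or release. In bulk RNA, fewer cells of a type and less RNA per cell cannot be told apart.

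Dhx58, the gene targeted in the KO, was checked first. In WT cells at 6 h the mock libraries held 362, 287 and 273 normalized counts and the PAMP RNA libraries 3066, 2941 and 3009.8. In KO-labelled cells at 6 h the mock libraries held 808, 725 and 634 and the PAMP RNA libraries 807, 985 and 1012. KO-labelled mock cells therefore had more Dhx58 reads than WT mock cells, by 1.23 (SE 0.14, adjusted p = 3.1e-09) in log2 units, which goes against a label read as loss of the transcript. The response to PAMP RNA was smaller under the KO label, with a difference of -3.07 at 3 h and -2.93 at 6 h. The table gives 1 value per gene, so reads inside and outside a deleted part cannot be told apart, and an antisense gene, Dhx58os, overlaps Dhx58 in a protocol whose kits are not described as keeping strand. The genotype is written "KO-labelled" throughout, and each direction between genotypes below rests on that label.

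Depth ran from 4740909 to 14255730 reads in genes per library, and any pair of libraries within a group correlated at 0.989 or more in log2 values. The summed normalized counts of 7 dendritic cell markers were 24573 to 50108, led by Cd74, and Itgax, the gene for CD11c, was at 2354 to 3441, while Flt3 did not exceed 25.9. The summed macrophage or monocyte markers, 8 of 8 detected, were 159354 to 261684, mostly Lyz2, which GM-CSF cultures also express. The neutrophil markers in the table, 8 of 9 listed, summed to 124 to 262, and the T cell sum was 0 to 46.2, nearly all Lck, with 0 reads of Cd3g. B cell, NK cell and mast cell or basophil markers summed to at most 17.8, 26.3 and 226.

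By the GENCODE annotation of GRCm38, Il1a (chr2:129299610-129309972) and Il1b (chr2:129364570-129371139) lie on the minus strand of chromosome 2, and Il1rn (chr2:24336853-24351494) lies on its plus strand. Casp1 (chr9:5298517-5307265) and Il18 (chr9:50554827-50581840) are on the plus strand of chromosome 9. Il18bp (chr7:102014885-102018690) and Pycard (chr7:127989708-127993867) are on the minus strand of chromosome 7, and Nlrp3 (chr11:59541568-59566956) is on the plus strand of chromosome 11. Exons of 4 members share bases with a gene on the other strand, and reads of such a pair cannot be told apart without strand. These are Il1a with Gm14023 (222 bases), Il1b with Il1bos (25 bases), Il18bp with Numa1 (80 bases) and Pycard with Gm45205 (485 bases, not in the table). Il18 overlaps Bco2 and Tex12 on the other strand and shares 0 exon bases with either. At 6 h the Bco2 mean was 6.77 in mock and 24.8 in stimulated WT cells, and 4.32 and 35.2 in KO-labelled cells. The part of Bco2 in the Il18 counts was not tested. Il1rn, Nlrp3 and Casp1 overlap no annotated gene.

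All 8 members rose after PAMP RNA in both genotypes at 3 h and at 6 h, and only Il1a passed the test at 1 h. The change was the log2 difference between PAMP RNA and mock cells of the same time and genotype on the scale log2(normalized count + 1), which understates the change of low genes. A gene was called at a Benjamini-Hochberg adjusted p under 0.05 over all 11853 genes, from limma's test fitted to all 36 libraries. At 1 h, 1 of 8 members rose and 0 fell in WT cells, beside 0.801% and 0.143% of all genes. The same counts, 1 and 0, held in KO-labelled cells, beside 1.19% and 0.169% of all genes. At 3 h, 8 of 8 members rose in WT cells, where 19.6% of all genes rose and 22% fell. In KO-labelled cells 8 of 8 also rose at 3 h, beside 23.8% rising and 26.9% falling among all genes. At 6 h all 8 rose in WT cells, against 32.1% rising and 33.3% falling, and all 8 rose in KO-labelled cells, against 35.1% and 36.5%.

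The median change of the 8 members was 0.12, 1.10 and 1.76 at 1, 3 and 6 h in WT cells and 0.10, 1.26 and 1.93 in KO-labelled cells. The median of all genes tested was between -0.03 and -0.01 in each of these 6 responses. With every library scaled to the same total the median gene moved by -0.20 and -0.39 in WT cells at 3 and 6 h and by -0.28 and -0.51 in KO-labelled cells. The share of calls that were rises then went from 47.1% to 23.0% in WT cells at 3 h, from 49.0% to 20.8% at 6 h, from 46.9% to 20.8% in KO-labelled cells at 3 h and from 49.0% to 20.2% at 6 h. Quantile normalization gave shares of 33.9%, 40.0%, 34.8% and 40.4%. Under both scalings 7 of the 8 members rose in the responses at 3 h and all 8 at 6 h, and the exception was Pycard at 3 h, described below.

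**Figure D1:**
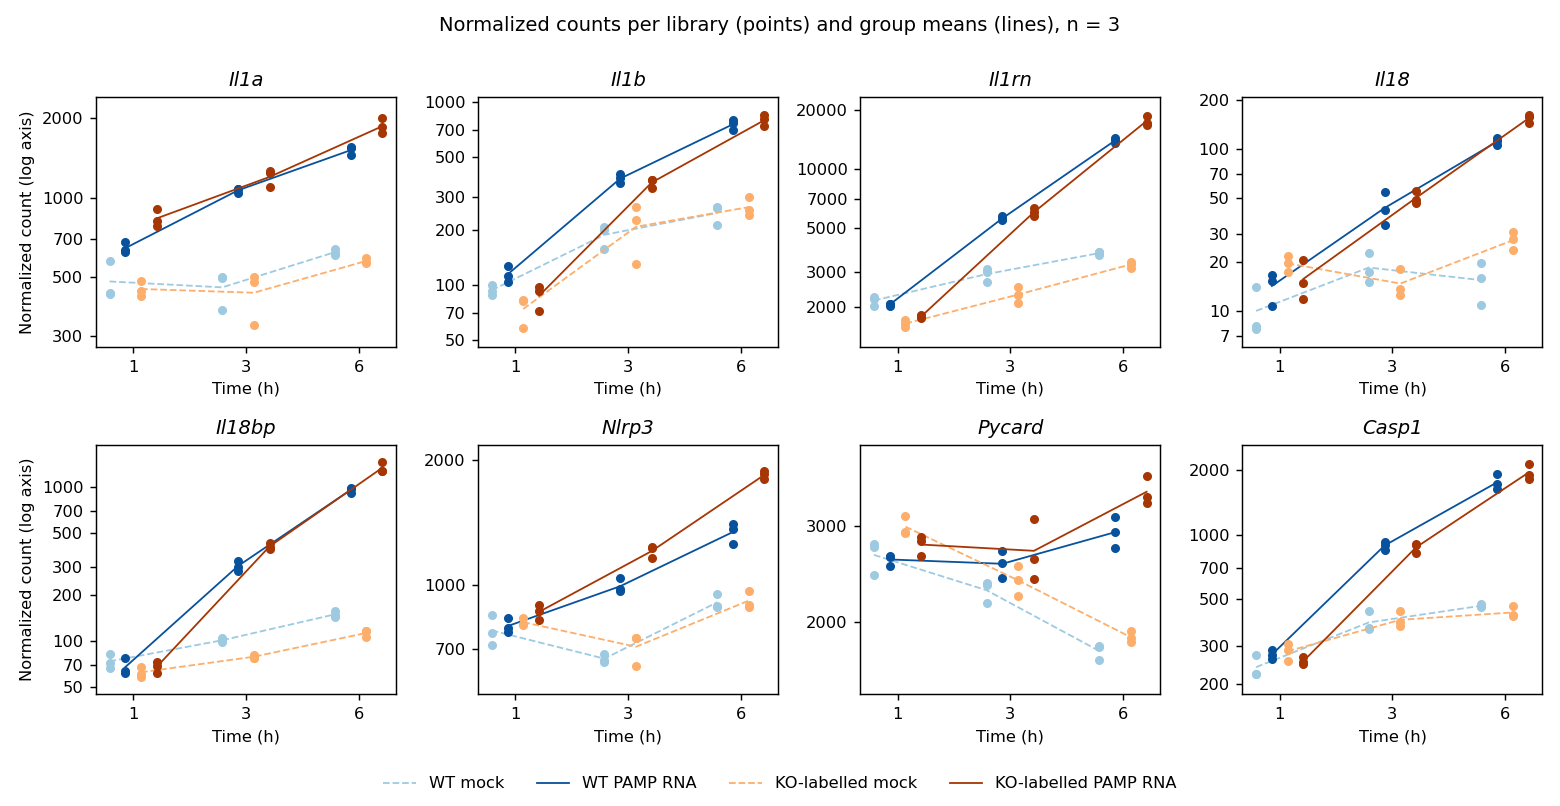
Normalized counts of the 8 members (vertical axis, log scale) in each of the 36 libraries against time after treatment in hours, with points for libraries and lines joining the means of 3 libraries. On the deposited scale all 8 genes have their highest group mean in KO-labelled cells 6 h after PAMP RNA, and the share of all genes that do was not counted. Pycard alone falls over time in mock cells.

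Il1a was the only member called at 1 h. At 1 h the WT mock libraries held 578, 434 and 435 normalized counts of Il1a and the WT PAMP RNA libraries 679.7, 622 and 632. The KO-labelled mock libraries held 425, 485 and 446 and the KO-labelled PAMP RNA libraries 910.0, 779 and 818. The groups did not overlap in either genotype, and WT mock replicate 1 stood above its 2 fellows. Il1a rose by 0.43 (SE 0.10, adjusted p = 0.0123) in WT cells and by 0.88 (SE 0.10, adjusted p = 4.0e-09) in KO-labelled cells. The call in WT cells was lost when WT mock replicate 2, WT mock replicate 3 or WT PAMP RNA replicate 1 was left out (adjusted p = 0.141, 0.164 and 0.101), when no filter on low values was used (adjusted p = 0.073) and when the fit was limited to the compared groups (adjusted p = 0.0576). The KO-labelled call held in every alternative run.

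In KO-labelled cells at 3 h Il1a went from 479, 332 and 502 in mock to 1098, 1234 and 1261 in stimulated libraries, a change of 1.47. In WT cells it stood at 1080.0, 1038 and 1080.4 in stimulated libraries against 377, 501 and 497 in mock cells, which was a rise of 1.23 (SE 0.10, adjusted p = 8.3e-15). At 6 h the stimulated WT libraries held 1541, 1444 and 1549.6 and the KO-labelled ones 1992, 1842 and 1750.5, with no overlap. Their mock controls held 607, 619 and 642 and 591, 567 and 573. The rise at 6 h was 2.42-fold in WT cells and 3.22-fold in KO-labelled cells. Gm14023, which overlaps Il1a on the other strand, was also higher, from a mean of 80.9 in WT mock cells at 1 h to 272 in WT cells 6 h after PAMP RNA, and its part in the Il1a counts was not tested.

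Il1b was called from 3 h on. At 1 h it stood at 99.5, 92.4 and 87.4 normalized counts in WT mock cells and 126, 103 and 111 in WT cells given PAMP RNA, and the change of 0.28 (SE 0.15, adjusted p = 0.601) did not pass the test although the libraries did not overlap. In KO-labelled cells at 1 h mock libraries held 57.9, 80.9 and 81.9 and stimulated ones 97.0, 92.2 and 71.4, which overlapped. At 3 h the WT values were 156, 198 and 208 in mock and 401, 359 and 381 in stimulated cells. That rise was 1.03 (SE 0.15, adjusted p = 9.4e-08), and the KO-labelled rise was 0.86 (SE 0.15, adjusted p = 2.4e-06). KO-labelled mock libraries at 3 h were spread more widely than the others, at 225, 129 and 267, and all lay below the stimulated ones at 375, 372 and 339. At 6 h Il1b reached 764, 705 and 791 in WT cells and 843, 805 and 735 in KO-labelled cells, ranges that overlapped. The rise over mock was 3.06-fold and 2.99-fold. The overlapping antisense gene Il1bos stayed at a group mean of at most 8.16.

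Il1b also rose without PAMP RNA. Its mock level went from 93.1 ± 6.07 at 1 h to 247 ± 30.3 at 6 h in WT cells (SD, n = 3), a change of 1.39 (SE 0.15, adjusted p = 2.9e-11), and in KO-labelled mock cells by 1.85 (SE 0.15, adjusted p = 4.2e-15). In folds the WT mock change was 2.62 beside the response of 3.06 at 6 h, and the difference between them was not tested.

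Il18 had the fewest reads of the 8 members. In WT mock cells it was read 9, 8 and 15 times per library at 1 h, which is 8.07, 7.70 and 14.1 normalized counts, and counting error is large at that depth. At 3 h mock WT libraries held 17.4, 15.1 and 22.9 and stimulated ones 41.7, 33.7 and 54.1. At 6 h the values were 15.9, 19.6 and 10.8 in mock and 112, 106 and 117 in stimulated WT cells. No stimulated library overlapped a mock library at either time, and the rises were 1.17 (SE 0.23, adjusted p = 4.1e-05) and 2.81 (SE 0.23, adjusted p = 8.9e-15). At 3 h KO-labelled libraries held 13.6, 18.0 and 12.5 in mock and 55.1, 46.5 and 48.2 after PAMP RNA. In KO-labelled cells at 6 h mock libraries held 30.5, 27.6 and 23.8 and stimulated ones 164, 157 and 145, a rise of 2.47 (SE 0.23, adjusted p = 3.9e-13). The 7.01-fold change in WT cells was the largest among the 8 members there in fitted value, ahead of 6.38-fold for Il18bp, and their difference was not tested.

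The bases just upstream of the annotated RefSeq starts are given for 4 members, Il1a because it was called first, Il1b as its neighbour on the chromosome that was not called at 1 h, and Il1rn and Nlrp3 because their response differed between genotypes. Il18bp, whose response also differed, is not printed: its stretch lies inside the GENCODE gene and held no match to the motifs searched. Of the 3 Il1rn and 2 Nlrp3 starts, the one with a motif match is shown. Each run is the 250 bases before the start site in RefSeq GRCm38.p6, 5′ to 3′ on the gene's strand, with motif matches in capitals. The positions are chr2:129309973-129310222 (minus strand) for Il1a, chr2:129371140-129371389 (minus strand) for Il1b, chr2:24336610-24336859 (plus strand) for the first of 3 Il1rn starts and chr11:59541319-59541568 (plus strand) for the second of 2 Nlrp3 starts.
Il1a: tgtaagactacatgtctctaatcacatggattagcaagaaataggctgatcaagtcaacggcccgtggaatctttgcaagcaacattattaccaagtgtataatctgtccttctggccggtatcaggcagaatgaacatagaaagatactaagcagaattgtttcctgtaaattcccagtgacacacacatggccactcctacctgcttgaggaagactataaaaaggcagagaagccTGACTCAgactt
Il1b: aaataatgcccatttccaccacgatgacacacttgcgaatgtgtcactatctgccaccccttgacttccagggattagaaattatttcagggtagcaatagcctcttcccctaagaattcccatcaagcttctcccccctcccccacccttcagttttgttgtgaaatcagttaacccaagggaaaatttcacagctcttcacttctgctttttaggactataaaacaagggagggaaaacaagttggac
Il1rn: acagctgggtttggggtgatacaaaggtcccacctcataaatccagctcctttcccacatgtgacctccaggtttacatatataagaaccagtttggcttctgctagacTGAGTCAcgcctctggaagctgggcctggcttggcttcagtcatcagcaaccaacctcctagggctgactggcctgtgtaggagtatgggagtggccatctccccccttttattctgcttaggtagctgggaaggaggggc
Nlrp3: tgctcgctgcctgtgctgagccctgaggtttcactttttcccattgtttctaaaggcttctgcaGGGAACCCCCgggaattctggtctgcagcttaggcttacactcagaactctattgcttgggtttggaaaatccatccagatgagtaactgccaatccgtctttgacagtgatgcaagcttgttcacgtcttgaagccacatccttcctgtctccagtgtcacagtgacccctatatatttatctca

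The capitals mark an AP-1 motif at position -12 from the start in Il1a, an AP-1 motif at position -141 in Il1rn and a kappa-B motif at position -186 in Nlrp3. Windows of 300 bases, 250 before and 50 after the start, were searched on both strands for the interferon regulatory factor core GAAANNGAA, the gamma-activated site TTCNNNGAA, AP-1 as TGANTCA and the kappa-B motif. All 8 members had at least 1 window, and these 3 matches were the only ones in them. Of all 32851 mouse windows, 8.56% held the first motif, 8.30% the second, 7.81% the AP-1 motif and 4.51% the kappa-B motif. Whether the members held more matches than these shares would give was not tested. Il1rn and Nlrp3 have more than 1 start, and which start these cells used was not tested. The core and the gamma-activated site can overlap each other in a sequence. A match is a description of the letters and not of a bound site, and no match in a window says only that these letters are not there.

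**Figure D2:**
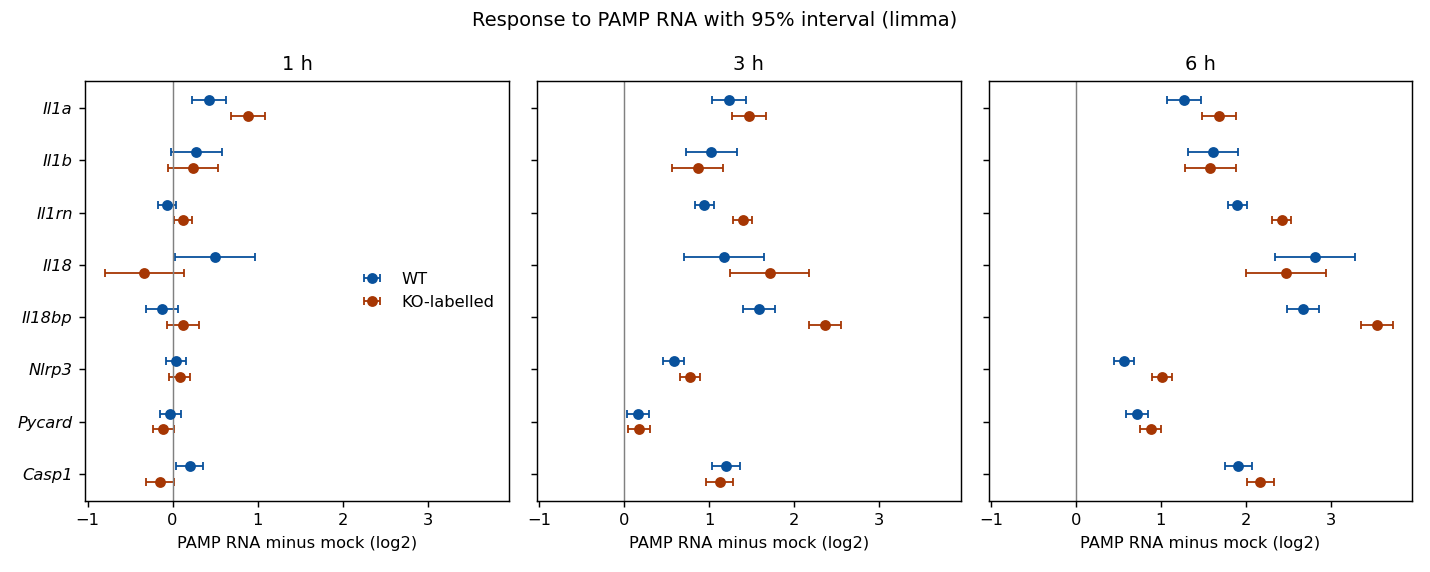
Log2 difference between PAMP RNA and mock cells for each member (horizontal axis) at 1, 3 and 6 h in WT and KO-labelled cells, with points for limma estimates and bars for 95% intervals (n = 3 libraries per group). At 6 h every interval lies above 0, and Il18bp in KO-labelled cells has the highest estimate, 3.55.

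Both brakes, the receptor antagonist and the IL-18 binding protein, rose from 3 h on and rose more in KO-labelled cells. For Il1rn at 3 h the WT mock libraries held 2672, 2989 and 3109 normalized counts and the stimulated ones 5586, 5477 and 5783. The KO-labelled mock libraries held 2520.2, 2089 and 2297 and the stimulated ones 6031, 5750.2 and 6314. Mock and stimulated libraries were far apart in both genotypes, KO-labelled mock libraries lay below all WT mock libraries, and the stimulated libraries of the genotypes overlapped. The rise was 0.94 (SE 0.05, adjusted p = 5.1e-20) in WT cells and 1.39 (SE 0.05, adjusted p = 8.4e-27) in KO-labelled cells.

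At 6 h Il1rn was at 3642, 3782 and 3790.1 in WT mock cells and 13989.5, 13538 and 14350.1 in WT cells given PAMP RNA. In KO-labelled cells it was at 3303, 3146 and 3377 in mock and 18617, 16814 and 17195 in stimulated cells. The order of the genotypes was thus opposite in mock and stimulated cells, with no overlap in either. The rise was 3.73-fold in WT cells and 5.35-fold in KO-labelled cells. At 1 h Il1rn had not moved past the test in either genotype, with changes of -0.07 and 0.12.

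Il18bp had the widest range of the 8 members over the 12 groups, 21.2-fold from KO-labelled mock cells at 1 h (58.7, 61.1 and 68.3) to KO-labelled cells 6 h after PAMP RNA (1455, 1266 and 1267). At 3 h it was at 98.4, 104 and 101 in WT mock and 331, 286 and 303 in stimulated WT cells. The matching KO-labelled libraries held 81.7, 78.2 and 77.4 and 434, 405 and 395. All 4 groups at 3 h were separate, with the KO-labelled mock libraries lowest and the KO-labelled stimulated libraries highest. The rise was 3.01-fold in WT cells and 5.14-fold in KO-labelled cells.

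At 6 h the WT libraries held 156, 147 and 144 in mock and 986, 969.9 and 913 in stimulated cells, and the KO-labelled mock libraries held 116, 106 and 116. The rise was 2.67 (SE 0.09, adjusted p = 8.6e-29) in WT cells and 3.55 (SE 0.09, adjusted p = 6.0e-34) in KO-labelled cells. Numa1, which overlaps Il18bp by 80 exon bases on the other strand, had group means of 1034 to 1832. In WT cells at 6 h Numa1 went the other way, from a mean of 1832 in mock to 1251 in stimulated cells. In mock cells from 1 to 6 h it went the same way as Il18bp. Its mean went from 1034 to 1832 in WT and from 1067 to 1807 in KO-labelled mock cells. The part of Numa1 in the Il18bp counts was not tested.

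Of Nlrp3, Pycard and Casp1, the inflammasome members, Casp1 had the largest rise in fitted value at 3 and 6 h in both genotypes. Differences between genes were not tested. Casp1, the protease, in WT cells stood at 365, 439.5 and 361 in mock and 927, 892 and 847 in stimulated libraries at 3 h. At 6 h it stood at 456, 464 and 475 and 1912, 1719 and 1634. These groups did not overlap. KO-labelled cells at 3 h held 437, 373 and 389 in mock and 890.2, 820.3 and 905 in stimulated libraries. KO-labelled cells at 6 h held 415, 462 and 421 in mock and 2135, 1899.7 and 1818 in stimulated libraries. Every stimulated library at 3 and 6 h exceeded every mock library of its genotype and time, and the stimulated genotypes overlapped at both times. The rise was 1.20 (SE 0.08, adjusted p = 8.9e-18) at 3 h and 1.91 (SE 0.08, adjusted p = 8.4e-26) at 6 h in WT cells, and 1.12 and 2.17 in KO-labelled cells.

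Nlrp3 encodes the sensor itself. In WT cells at 3 h it was at 680.0, 650.0 and 659 in mock and 1036, 964 and 974 in stimulated libraries. At 6 h it was at 886, 887 and 948 and 1256, 1401 and 1366. The WT response was 0.58 (SE 0.06, adjusted p = 1.2e-11) at 3 h and 0.56 (SE 0.06, adjusted p = 1.3e-11) at 6 h. In KO-labelled cells Nlrp3 went from 744, 637 and 744 to 1159, 1228 and 1232 at 3 h and from 968, 884 and 893 to 1849, 1804 and 1878 at 6 h. The mock libraries of the genotypes overlapped at each time, and the KO-labelled stimulated libraries lay above all WT stimulated libraries at 3 h and at 6 h. The KO-labelled rise was 1.71-fold and then 2.01-fold.

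Pycard, the adaptor, was the 1 member that fell over time in mock cells. It was at 2746, 2771 and 2438 in WT mock cells at 1 h and at 1702, 1800.1 and 1807 at 6 h. It fell by 0.58 (adjusted p = 4.5e-11) in WT and by 0.67 (adjusted p = 6.5e-13) in KO-labelled mock cells. The stimulated WT libraries at 6 h held 3106, 2726 and 2919 and the KO-labelled ones 3687, 3303 and 3383, against 1838, 1865 and 1923 in KO-labelled mock cells. The response at 6 h, 0.72 (SE 0.06, adjusted p = 4.8e-14) in WT and 0.88 (SE 0.06, adjusted p = 3.6e-17) in KO-labelled cells, was therefore measured against a control that had fallen, and stimulated WT cells at 6 h overlapped WT mock cells at 1 h.

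At 3 h the Pycard change was small and depended on scaling. WT mock libraries held 2165, 2336 and 2354 and stimulated ones 2693, 2566 and 2402, and KO-labelled libraries held 2531, 2229.8 and 2385 and 3081, 2611 and 2399, the last pair overlapping. The changes were 0.16 (SE 0.06, adjusted p = 0.0364) and 0.17 (SE 0.06, adjusted p = 0.0186). They turned to -0.11 and -0.17 with quantile normalization and to -0.017 and -0.078 with equal totals. Leaving out WT mock replicate 1, WT PAMP RNA replicate 1 or 2, KO-labelled mock replicate 2 or KO-labelled PAMP RNA replicate 1 ended the call of its genotype, and without the last of these the KO-labelled change was 0.073.

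The question of whether the genotypes differ was tested at each time by subtracting the WT response from the KO-labelled response. The responses of the brakes and of Nlrp3 were larger in KO-labelled cells, and no member had a smaller response that passed the test. At 1 h, 0 of 8 members differed by limma (0 also by edgeR and by DESeq2), beside 0.118% of all genes with a larger and 0% with a smaller response. At an unadjusted p under 0.05, 4 of 8 differed at 1 h (Il1a and Il1rn larger, Il18 and Casp1 smaller). At that threshold 3 of 8 were larger at 3 h and 5 of 8 at 6 h, with 0 smaller. The share of all genes at the unadjusted threshold was not counted, so these counts have no background beside them. By the adjusted test at 3 h, 2 of 8 were larger and 0 smaller, beside 2.58% and 0.557% of all genes. At 6 h, 3 of 8 were larger and 0 smaller, beside 6.67% and 3.81%. The split of calls among all genes moved with scaling, from 82.3% larger at 3 h to 64.0% by quantile normalization and 48.5% with equal totals, and from 63.6% at 6 h to 42.5% and 23.3%.

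Il18bp differed most, by 0.77 (SE 0.13, adjusted p = 1.4e-04) at 3 h and 0.87 (SE 0.13, adjusted p = 8.8e-06) at 6 h. Il1rn differed by 0.45 (SE 0.08, adjusted p = 1.5e-04) at 3 h and 0.52 (SE 0.08, adjusted p = 5.6e-06) at 6 h. Nlrp3 differed by 0.45 (SE 0.08, adjusted p = 1.9e-04) at 6 h, and its 3 h value of 0.19 (SE 0.08, adjusted p = 0.279) did not pass. These 5 calls held in every alternative run, under each scaling and with each library left out in turn. Both responses at a time enter each difference, so for Il1rn and Il18bp it includes the lower level in KO-labelled mock cells given below.

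**Figure D3:**
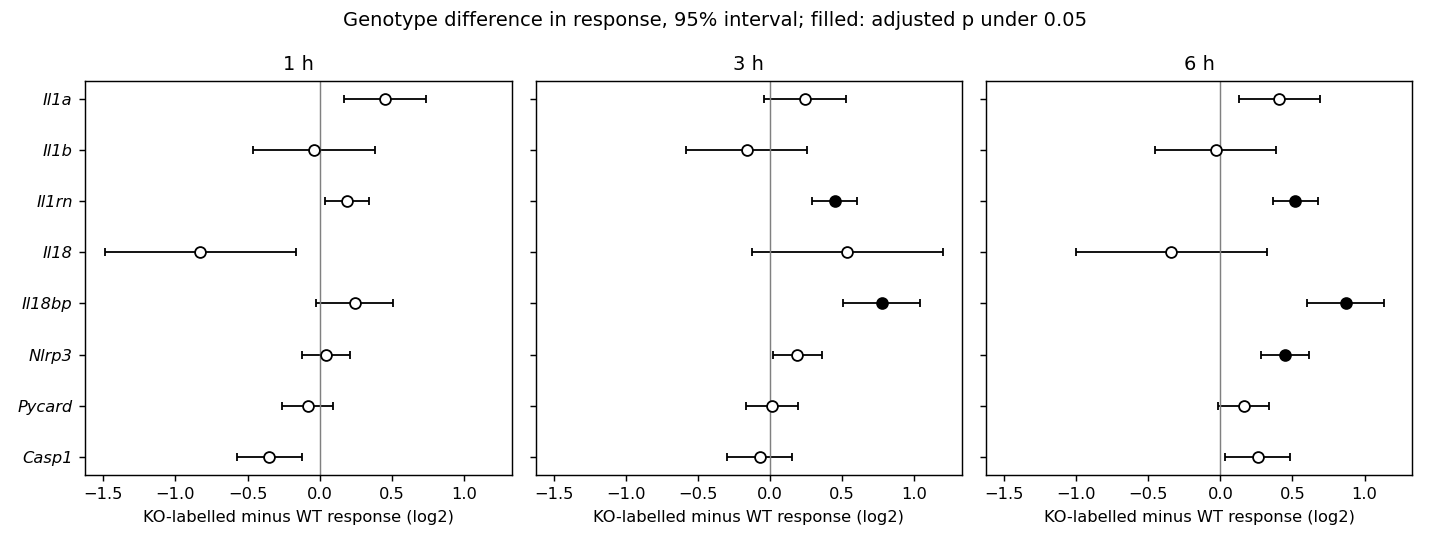
KO-labelled response minus WT response in log2 units (horizontal axis) for each member at 1, 3 and 6 h, with limma estimates as points and unadjusted 95% intervals as bars. Filled points passed the adjusted test: Il1rn and Il18bp at 3 h and these with Nlrp3 at 6 h.

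The other 5 members did not pass in this comparison. Il1a came nearest at 6 h, 0.41 (SE 0.14, adjusted p = 0.0518), and it passed with a pseudocount of 5 (adjusted p = 0.0465), with edgeR (adjusted p = 0.023), with only the compared groups in the fit (adjusted p = 0.00186) and without KO-labelled PAMP RNA replicate 3 (adjusted p = 0.0467). At 6 h the values were 0.26 (SE 0.11, adjusted p = 0.143) for Casp1 and 0.16 (SE 0.09, adjusted p = 0.272) for Pycard. For Il1b the 6 h difference was -0.03 with a 95% interval of -0.45 to 0.39, and for Il18 it was -0.34 with an interval of -1.002 to 0.32. These intervals allow differences in both directions and do not show that the genotypes respond alike.

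The genotypes were also compared in mock cells at each time. At 1 h, 2 of 8 members were higher in KO-labelled cells (Il18 and Casp1) and 1 lower (Il1rn), beside 4.34% higher and 7.28% lower among all genes. At 3 h, 0 were higher and 2 lower (Il1rn and Il18bp), beside 3.68% and 4.54%. At 6 h, 1 was higher (Il18) and 2 lower (Il1rn and Il18bp), beside 5% and 6.04%. Il1rn was the only member called at all 3 times.

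Il1rn in mock cells at 1 h was at 2176, 2016 and 2249 in WT and 1637, 1567 and 1711 in KO-labelled libraries. The difference was -0.39 (SE 0.05, adjusted p = 5.9e-07) at 1 h, -0.35 (SE 0.05, adjusted p = 7.3e-06) at 3 h and -0.19 (SE 0.05, adjusted p = 0.0154) at 6 h, with no overlap at any time. The 6 h call was lost without WT mock replicate 2 (adjusted p = 0.0518), WT mock replicate 3 (adjusted p = 0.0591) or KO-labelled mock replicate 2 (adjusted p = 0.105). For Il18bp the difference was -0.35 (SE 0.09, adjusted p = 0.00995) at 3 h and -0.40 (SE 0.09, adjusted p = 0.00251) at 6 h. Its 3 h call was lost in DESeq2 (adjusted p = 0.0501), with only the compared groups (adjusted p = 0.0649) and without WT mock replicate 2 (adjusted p = 0.052).

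Il18 in mock cells at 1 h was at 17.4, 19.8 and 21.7 in KO-labelled libraries, all above the WT libraries given above. It was higher by 0.95 (SE 0.23, adjusted p = 0.00331) at 1 h and 0.81 (SE 0.23, adjusted p = 0.0154) at 6 h, with -0.31 at 3 h, which did not pass. The 6 h call was lost without WT mock replicate 3, KO-labelled mock replicate 1 or KO-labelled mock replicate 2 (adjusted p = 0.153, 0.0718 and 0.0531). Casp1 at 1 h was higher by 0.25 (SE 0.08, adjusted p = 0.0312) with overlapping libraries, 274, 223 and 223 in WT and 307, 290.1 and 258 in KO-labelled cells. It did not pass by edgeR or DESeq2 (adjusted p = 0.0743 and 0.0977), without the filter (adjusted p = 0.07), with only the compared groups (adjusted p = 0.199), or without WT mock replicate 2 or 3 or KO-labelled mock replicate 1 or 2.

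Cell type markers differed between the genotypes too. The summed dendritic cell markers in mock cells were 39184 to 40654 in WT and 25270 to 28214 in KO-labelled libraries at 1 h, and 41719 to 43883 against 29495 to 30802 at 6 h. After PAMP RNA at 6 h they were 49114 to 50108 in WT and 38405 to 39123 in KO-labelled libraries. The neutrophil sum, for a cell type rich in Il1b and Il1rn, was 136 to 194 in WT and 219 to 262 in KO-labelled mock cells at 1 h, without overlap. Of the 4 neutrophil markers tested, 2 were called higher there and 0 lower, beside 4.34% and 7.28% of all genes. At 3 h the mock sums overlapped, at 138 to 175 and 139 to 194. It was 124 to 142 in KO-labelled mock cells at 6 h and 198 to 221 in stimulated ones, beside 129 to 147 and 140 to 158 in WT cells. The macrophage or monocyte sums of the genotypes overlapped in mock cells at 6 h, at 241293 to 250543 in WT and 238398 to 256600 in KO-labelled libraries. In the mock comparison at 1 h, 4 of 6 dendritic cell markers tested were called lower in KO-labelled cells and 0 higher. The dendritic cell counts were the same at 3 and 6 h, beside 4.54% and 6.04% of all genes lower. Of 7 macrophage or monocyte markers tested, 2 were called lower at 1 h and 0 higher. The 1 mast cell or basophil marker tested was called lower at each time. The part of these markers in the genotype differences was not tested.

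The members also differed between mock cells of different times. From 1 to 6 h in WT mock cells, 7 of 8 rose and 1, Pycard, fell, beside 30% and 31.5% of all genes. In KO-labelled mock cells 6 rose and 1, Pycard, fell, beside 30.3% and 32.4%. Il18bp rose by 1.01 (SE 0.09, adjusted p = 5.6e-13), Casp1 by 0.96 (SE 0.08, adjusted p = 1.6e-14), Il1rn by 0.80 (SE 0.05, adjusted p = 2.1e-17), Il1a by 0.38 (SE 0.10, adjusted p = 9.4e-04) and Nlrp3 by 0.23 (SE 0.06, adjusted p = 8.6e-04) in WT mock cells. In KO-labelled mock cells these rose by 0.84, 0.60, 1.00, 0.35 and 0.17.

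Il18 rose by 0.59 (SE 0.23, adjusted p = 0.0248) in WT mock cells with overlapping libraries, and by 0.46 (SE 0.23, adjusted p = 0.085) in KO-labelled ones, which did not pass. The WT call was lost in edgeR and DESeq2 (adjusted p = 0.0734 and 0.0903), under quantile normalization (adjusted p = 0.162) and in other alternatives. Leaving out WT mock replicate 1 or 2 at 1 h, or replicate 1 or 2 at 6 h, also ended it.

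Every member had its highest mean in KO-labelled cells 6 h after PAMP RNA. The share of all genes with their highest mean in that group was not counted. The order of groups was taken on the deposited scale only. From lowest to highest group mean the members spanned 21.2-fold (Il18bp), 15.6-fold (Il18), 10.8-fold (Il1b), 10.7-fold (Il1rn), 8.12-fold (Casp1), 4.26-fold (Il1a), 2.78-fold (Nlrp3) and 1.95-fold (Pycard). The lowest group was a mock group in each case. When the 12 groups of a gene were ordered by mean, 8 of the 11 neighbouring pairs had separate libraries for Il1rn, 7 for Il18bp, 6 for Il1a, 4 for Il1b and Il18, and 3 for Nlrp3, Pycard and Casp1. The remaining neighbours overlapped, among them WT and KO-labelled stimulated cells at 6 h for Il1b and Casp1.

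Levels can be compared between genes only per length. Normalized counts were divided by the length in kb of the gene's principal coding transcript in GENCODE, the longest where there was more than 1, from 860 bases for Il18 to 4021 for Nlrp3. On that scale Il1rn was the highest member in 10 of 12 groups, and Pycard in the other 2, both KO-labelled at 1 h. In WT cells 6 h after PAMP RNA the levels per kb were 5642 for Il1rn, 1172 for Casp1, 768 for Pycard, 766 for Il1a, 599.8 for Il18bp, 556 for Il1b, 334 for Nlrp3 and 129 for Il18. Il18 was the lowest member in all 12 groups. The order depends on which transcript the cells use, which the table does not show. Pycard was taken at 3800 bases, in a gene of 4160 bases. With a shorter transcript its level per kb would be higher, so its place below or above Il1rn rests on that length.

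The ratio of the receptor antagonist to the sum of its competing ligands was lower after PAMP RNA than in mock cells at 1 h and higher at 6 h. Il1rn per summed Il1a and Il1b, all per kb, was 2.40, 2.83 and 3.19 in WT mock libraries at 1 h and 1.91, 2.07 and 2.08 after PAMP RNA. In KO-labelled cells at 1 h it was 2.57, 2.08 and 2.42 in mock and 1.36, 1.53 and 1.56 after PAMP RNA. Stimulated libraries were lower in both genotypes without overlap. At 3 h it was 3.53, 3.02 and 3.10 in WT mock and 2.68, 2.80 and 2.82 in stimulated WT libraries, again lower without overlap. The KO-labelled libraries at 3 h overlapped, at 2.49, 3.21 and 2.06 in mock and 2.93, 2.58 and 2.87 after PAMP RNA, with the higher mean in stimulated cells. At 6 h stimulated libraries were higher in both genotypes, with 3.04 ± 0.18 in mock and 4.27 ± 0.09 in stimulated WT cells (SD, n = 3). The KO-labelled means were 2.71 ± 0.04 and 4.64 ± 0.21. Il1rn per Il1b alone was lower after PAMP RNA without overlap in WT cells at 1 h. In KO-labelled cells at 1 h it overlapped, at 15.5, 10.6 and 11.4 in mock and 10.2, 10.4 and 13.8 after PAMP RNA. It overlapped in both genotypes at 3 h and was higher without overlap in both at 6 h. No test was run on these ratios, which are given as values only.

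Il18bp per Il18 rests on the low Il18 counts. At 6 h it was 5.28, 4.06 and 7.19 in WT mock and 4.75, 4.96 and 4.23 in stimulated WT libraries, which overlapped. The KO-labelled values at 6 h were 2.05, 2.07 and 2.64 in mock and 4.80, 4.34 and 4.72 in stimulated libraries, which did not. The stimulated libraries of the genotypes overlapped, and the mock libraries were separate. Pycard per Casp1 went from 4.38 ± 0.47 in WT mock cells at 1 h to 1.50 ± 0.03 at 6 h and 0.66 ± 0.04 in WT cells 6 h after PAMP RNA. Il1a per Il1b was 3.55 ± 0.40 in WT mock cells at 1 h and 1.75 ± 0.23 at 6 h. It was highest in KO-labelled cells 1 h after PAMP RNA, at 6.45, 5.80 and 7.86.

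**Figure D4:**
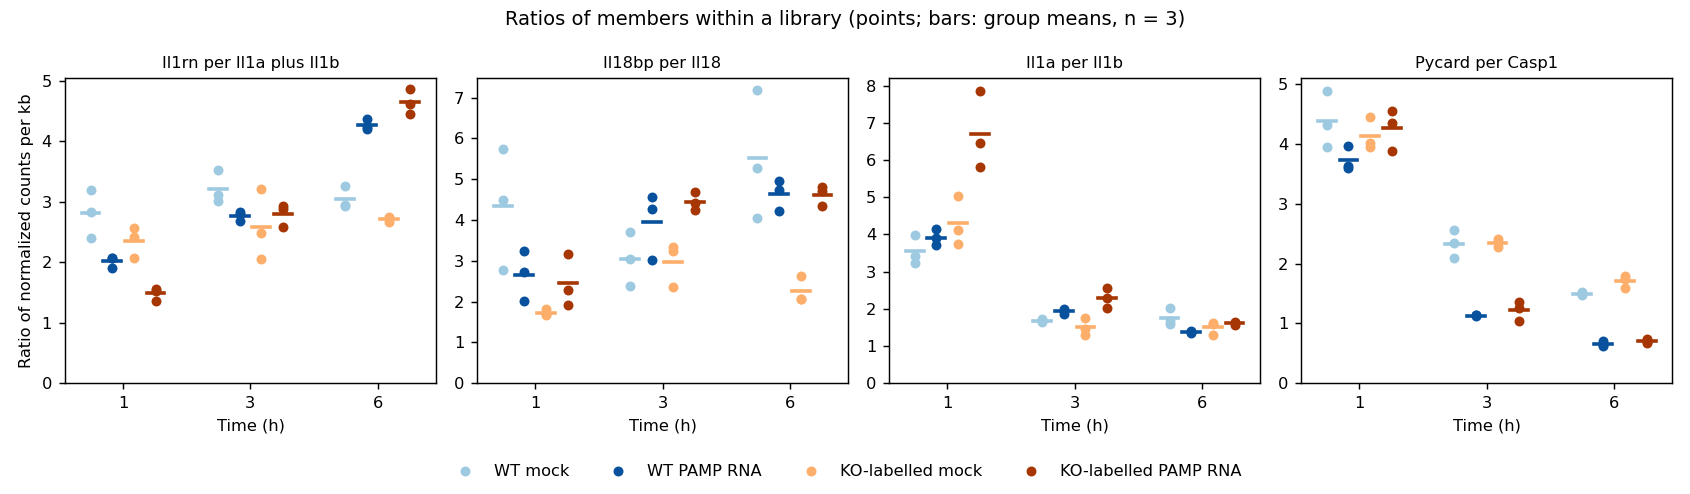
Ratios of normalized counts per kb between members within each library (vertical axes from 0) against time in hours, with points for libraries and bars for means of 3. Il1rn per summed Il1a and Il1b is lower after PAMP RNA at 1 h and higher at 6 h in both genotypes, at 3 h it is lower in WT cells and overlaps in KO-labelled cells, and Pycard per Casp1 is lower at later times in both genotypes and treatments.

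The course over the 12 group means, on the log2 scale, was close among most members. Il1rn and Il18bp had the highest Pearson correlation of any pair, 0.992, followed by Il18bp with Casp1, 0.986, and Il1rn with Casp1, 0.983. Pycard had the lowest, from 0.129 with Il1b to 0.519 with Il1a. Among the other 7 members the lowest was 0.780, for Il1a with Il1b. The 12 points share their libraries across genes and follow the same time and treatment groups, so these values are descriptions.

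The genes most like each member over the 12 group means were taken from 9782 genes that averaged 50 normalized counts or more. Il18bp was followed most closely by Tmco3 (0.998), Ly6a (0.995) and Lgals3bp (0.995), and Il1rn by H2-Q4 (0.997), Scarf1 (0.997) and Dok1 (0.996). Casp1 was nearest to Tapbpl (0.995), Bloc1s6 and Fancl. Il1a was nearest to Ccrl2 (0.983), Ccnl1 and its own overlapping gene Gm14023 (0.976). Il1b was nearest to Tmcc3 (0.989) and Nes, and Il18 to Bnip2 (0.981), Milr1 and Pcsk7. Nlrp3 was nearest to Mier1 (0.989), Tbk1 and Scarb2, and Pycard to Sar1a (0.970), Mapk6 and 4930404N11Rik.

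The other genes of these pathways were followed in 3 lists. Of the other IL-1 family ligands and receptors, 9 of 14 in the table were tested. At 3 h, 3 rose and 2 fell in WT cells (median change 0.07), and 4 rose and 4 fell in KO-labelled cells (median 0.18). In WT cells 6 h after PAMP RNA, 2 were higher and 6 lower (median change -0.94), and 3 rose and 6 fell in KO-labelled cells (median -1.21). Il1rl1, the receptor of IL-33, fell by 1.87 in WT and 2.51 in KO-labelled cells. Il1r1, the signalling IL-1 receptor, fell by 1.50 and 1.47 (SE 0.21), and Sigirr, an inhibitory receptor of the family, by 1.21 and 1.77 (SE 0.17). Both genes were low. Il1r1 went from a mean of 40.6 to 13.8 in WT and from 29.9 to 10.4 in KO-labelled cells. Sigirr went from 80.0 to 33.9 and from 77.5 to 22.2. Il1rap, the accessory chain that IL-1 and IL-33 receptors share, rose by 1.79 (SE 0.09, adjusted p = 3.7e-23) and 1.72 (SE 0.09, adjusted p = 9.9e-23). Il1f9, the ligand IL-36 gamma, rose at 3 h in both genotypes, by 0.65 (SE 0.12, adjusted p = 7.3e-06) in WT and 0.89 (SE 0.12, adjusted p = 6.9e-09) in KO-labelled cells. At 6 h it had a WT value of -0.07 (SE 0.12, adjusted p = 0.587), which did not pass, and rose by 0.63 (SE 0.12, adjusted p = 5.9e-06) in KO-labelled cells. It was the 1 gene of the list whose response differed at 6 h, by 0.70 (SE 0.16, adjusted p = 0.00312). Of all genes, 6.67% had a larger and 3.81% a smaller response there.

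Of other inflammasome sensors, regulators and effectors, 21 of 24 in the table were tested. In WT cells 6 h after PAMP RNA, 10 were higher and 5 lower (median 0.14), and 13 rose and 3 fell in KO-labelled cells (median 0.37). Of all genes, 32.1% rose and 33.3% fell there in WT cells, and 35.1% and 36.5% in KO-labelled cells. Casp4, the caspase-11 gene that senses cytosolic lipopolysaccharide, rose by 3.01 (SE 0.11, adjusted p = 1.3e-27) in WT and 3.62 (SE 0.11, adjusted p = 5.0e-31) in KO-labelled cells. Aim2, a sensor of cytosolic DNA, rose by 1.40 and 1.83, and Gsdmd, the pore former that caspase-1 cuts, by 1.22 and 1.55. Casp8 rose by 1.12 and 1.41. The response at 6 h was larger in KO-labelled cells for 6 genes of the list and smaller for 1. The shares of all genes were 6.67% larger and 3.81% smaller. Aim2 differed by 0.43 (SE 0.08, adjusted p = 2.1e-04), Casp4 by 0.61 (SE 0.16, adjusted p = 0.0085), Casp8 by 0.30 (SE 0.08, adjusted p = 0.00899) and Gsdmd by 0.34 (SE 0.10, adjusted p = 0.0201).

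Of 15 genes of IL-1 receptor signalling, all tested, WT cells had 6 higher and 5 lower at 6 h (median 0.08). In KO-labelled cells 7 rose and 5 fell (median 0.13). The shares of all genes were 32.1% rising and 33.3% falling in WT cells, and 35.1% and 36.5% in KO-labelled cells. Peli1, a ubiquitin ligase of the IRAK complex, rose by 1.95 (SE 0.08, adjusted p = 1.1e-26) and 2.66 (SE 0.08, adjusted p = 2.3e-32). Myd88, the shared adaptor, rose by 1.63 and 1.99, and Irak2, a kinase of the same complex, by 0.60 and 1.00. Irak3, the inhibitory IRAK-M, fell by 0.68 and 0.64, and Tab1, a partner of the kinase TAK1, by 0.63 and 0.44. The response of 3 genes was larger in KO-labelled cells at 6 h: Peli1 by 0.72 (SE 0.11, adjusted p = 8.9e-06), Irak2 by 0.41 (SE 0.08, adjusted p = 1.8e-04) and Myd88 by 0.36 (SE 0.08, adjusted p = 9.4e-04). Of all genes, 6.67% had a larger and 3.81% a smaller response in KO-labelled cells at 6 h.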

How the data were processed

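RNA from 36 samples was made into libraries with SMARTer and Nextera XT kits and read as single reads, per the labels' protocols. The deposited signal is a read count per gene divided by 1 factor per library. Per the submitters' processing notes TopHat, Cufflinks and DESeq2 were used with GRCm38 (mm10), with no version, annotation or filter named there. All values (100%) were whole multiples of 1 step per library within 0.01 read, so whole reads could be recovered.

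Genes with a mean of at least 10 were tested on log2(value + 1) with limma 3.58.1 (R 4.3.3) and a mean-variance trend, over 12 group means with 24 residual degrees of freedom, in 14 two-sided comparisons, each with Benjamini-Hochberg adjustment over all genes. Depth sets precision chiefly for Il18, with 8 to 123 reads per library. The samples were grouped by their labels. Replicate numbers did not pair the libraries: same-numbered residuals correlated at -0.11 to 0.18, and the nearest library by residuals had the same number for 12 of the 36. Alternatives were a pseudocount of 5, no filter, 2 scalings, only the compared groups, a replicate block, edgeR 4.0.16 and DESeq2 1.42.0 on the recovered reads, and each library left out. The tests were checked on simulated data.

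Named are all members, Dhx58, in each list up to 4 genes with the largest called WT response at 6 h and up to 2 with the smallest adjusted p of the genotype difference, and 3 genes most like each member, except 1 gene that is not reported here. Members and lists were chosen with earlier results of these data known. Promoter windows are from RefSeq (GRCm38.p6).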

Additional observations from a re-analysis of the deposited data

Results flagged for a closer look

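The response differed between the genotypes, KO-labelled minus WT in log2 units by limma's test of that difference, for 3 members. Il18bp differed by 0.77 (SE 0.13, adjusted p = 1.4e-04) at 3 h and 0.87 (SE 0.13, adjusted p = 8.8e-06) at 6 h, Il1rn by 0.45 (SE 0.08, adjusted p = 1.5e-04) and 0.52 (SE 0.08, adjusted p = 5.6e-06), and Nlrp3 by 0.45 (SE 0.08, adjusted p = 1.9e-04) at 6 h. All 3 libraries of KO-labelled stimulated cells exceeded all 3 WT ones at 6 h for each of these genes. At 3 h the stimulated Il1rn libraries overlapped, at 5477 to 5783 in WT and 5750 to 6314 in KO-labelled cells. In mock cells at 3 h Il1rn and Il18bp were each lower under the KO label, by 0.35, and this enters their differences.

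Among the other pathway genes named, the response differed for Peli1 by 0.52 at 3 h and 0.72 at 6 h. At 6 h it also differed for Il1f9 by 0.70, Casp4 by 0.61, Aim2 by 0.43, Irak2 by 0.41, Myd88 by 0.36, Gsdmd by 0.34 and Casp8 by 0.30. The Gsdmd call was lost without WT mock replicate 1, WT PAMP RNA replicate 3 or KO-labelled mock replicate 3 at 6 h (adjusted p = 0.0884, 0.0689 and 0.079). With quantile normalization Casp4, Casp8 and Gsdmd did not pass (adjusted p = 0.0557, 0.155 and 0.245), and with equal totals Casp8 and Gsdmd did not (adjusted p = 0.105 and 0.159). Dhx58 differed by -3.07 at 3 h and -2.93 at 6 h.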

How the results depend on the processing

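The members called in the 3 h and 6 h responses numbered 7 or 8 at 3 h and 8 at 6 h in both genotypes with each library left out. At 1 h the count in WT cells, 1 (Il1a), was 0 with no filter and 0 with only the compared groups, and 0 to 1 with each library left out. The mock genotype difference at 3 h, 2 members, was 1 (Il1rn) with only the compared groups and 1 (Il1rn) by DESeq2, and 1 to 2 with each library left out. At 6 h it was 1 to 3. Direction turned for Pycard at 3 h, to -0.11 in WT and -0.17 in KO-labelled cells by quantile normalization (adjusted p = 0.163 and 0.0166) and to -0.017 and -0.078 with equal totals, which shift the median gene. It also turned for Dhx58 in KO-labelled cells at 6 h, to -0.11 with equal totals. Another 33 changes that passed in neither fit changed sign, and the largest of them was 0.16 in size. Of 112 results of members, the replicate block changed 1 call: Pycard in the mock genotype difference at 1 h kept its value of 0.17 and passed (adjusted p = 0.0487). It also passed under both scalings. With each library left out in turn, 791 results of members kept their side of the threshold, 24 lost it and 1 gained it. DESeq2 gave no adjusted p for Il18 in the genotype differences in response. Depth limits Il18 most, whose 6 h genotype difference has an SE of 0.33.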
